A study of Sus scrofa with 90 samples.

Results

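The 4 genes described here are nuclear genes whose proteins work in mitochondria, followed in pig back muscle (Longissimus dorsi) without and after damage by propylene glycol, a solvent used as a carrier for injected drugs. They are HSPE1 (gene ID 397575), COX7A1 (399685), ATP5G1 (574054, now named ATP5MC1) and ATP5G2 (100037988, now named ATP5MC2). Members were all features annotated with 1 of these symbols alone that had a value in every column of the deposited table. The table lists 8 such features, of which 4 had values, 1 per gene, out of 1908 features with complete values and 121 genes with a symbol among them. The other 4 listed features (2 of HSPE1, 1 of COX7A1 and 1 of ATP5G2) had no value in any column, so no gene could be checked against a second feature of its own.

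All groups came from the same 10 piglets, named C to L. Each animal received 4 intramuscular injections of propylene glycol at different times and randomised sites, and 1 further site that was not injected served as control, so the controls are muscle of animals that also carried lesions. Control muscle gave 10 samples, as did the 6 h lesion and the 2 d lesion. The 7 d lesion gave 9, with no sample for pig J, and the 21 d lesion gave 9, with no sample for pig L. Total RNA was reverse transcribed with a radioactive label and hybridised to 1 array per sample, which gave 48 samples in all.

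In mammals HSPE1 is the small co-chaperonin (Hsp10) that caps the Hsp60 folding chamber in the mitochondrial matrix, where imported proteins fold. COX7A1 is the heart and skeletal muscle form of a small subunit of cytochrome c oxidase, the last enzyme of the respiratory chain. ATP5G1 and ATP5G2 encode the same mature protein, subunit c of the rotating membrane ring of ATP synthase, behind different import peptides. Muscle fibres are rich in these enzymes, and slow oxidative fibres hold more of them than fast fibres.

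Several facts of the arrays touch every result. Whether each symbol belongs to the spot it is listed for could not be checked, so a gene name below stands for the feature listed under it. The array for the 6 h lesion of pig F did not line up with the feature list. Against the mean of all other arrays its values gave r = 0.240 as listed, but r = 0.739 once they were moved by 384 places, where the other 47 arrays gave at least 0.718 as listed. As listed it held 0.214 for HSPE1 and 1.84 for ATP5G1, and 384 places away it held 1.43 and 0.625. It was left out of all values and counts unless stated, which left 9 arrays at 6 h. Pig J had 2 columns for its 6 h lesion, and the column that repeats every value of pig I's control was left out. The width of an array, taken as the SD of its table values, had a mean of 0.976 ± 0.237 in control muscle (SD over 10 arrays). In lesions the mean width was 0.744 ± 0.0926 for 6 h (9 arrays), 0.805 ± 0.0985 for 2 d (10 arrays), 0.607 ± 0.158 for 7 d (9 arrays) and 0.643 ± 0.196 for 21 d (9 arrays). Arrays of lesions thus had narrower values on average, and most features with high values were lower in them. Of the 191 features with the highest means, 91.6% were lower at 6 h than in controls on the table values and 66.0% after quantile normalization, which gives every array the same distribution. At 21 d these shares were 96.3% and 69.6%. Both scales are therefore given for the members and for the pathway calls. Values are logarithms of a base that the sources used here do not give, so differences are in log units, lesion minus control, with the standard error (SE) of the limma fit. Each p was adjusted over the 1908 features, and those with an adjusted p below 0.05 are spoken of as called. In bulk tissue, fewer cells of a type and less RNA per cell cannot be told apart.

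HSPE1 was the member that moved most on the normalized scale. It was higher than in control muscle at 6 h, 7 d and 21 d, with the largest rise at 6 h and a lower value at 2 d than at the ages on either side. Among the scalings tried, this direction was seen with quantile normalization, with division by the array SD and with a term for the array SD. On the table values as deposited, or centred on the array median, its difference was below 0 at every age.

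The normalized HSPE1 value ran from 1.95 to 2.53 with a median of 2.08 in the 10 controls. At 6 h it ran from 2.37 to 3.22 with a median of 2.82, and 8 of the 9 lesions lay above every control. At 2 d the range was 2.12 to 2.70 with a median of 2.35, and 2 of 10 lesions lay above every control. The 2 d lesions thus overlapped the controls much more than the 6 h lesions did. The 7 d lesions lay between 2.42 and 2.98 with a median of 2.65, and again 8 of 9 were above every control. The 21 d lesions spread from 2.02 to 2.98 with a median of 2.37, and 2 of 9 were above every control. A single control, that of pig E at 2.53, set the upper limit in these counts, since the next highest was 2.17.

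**Figure D1:**
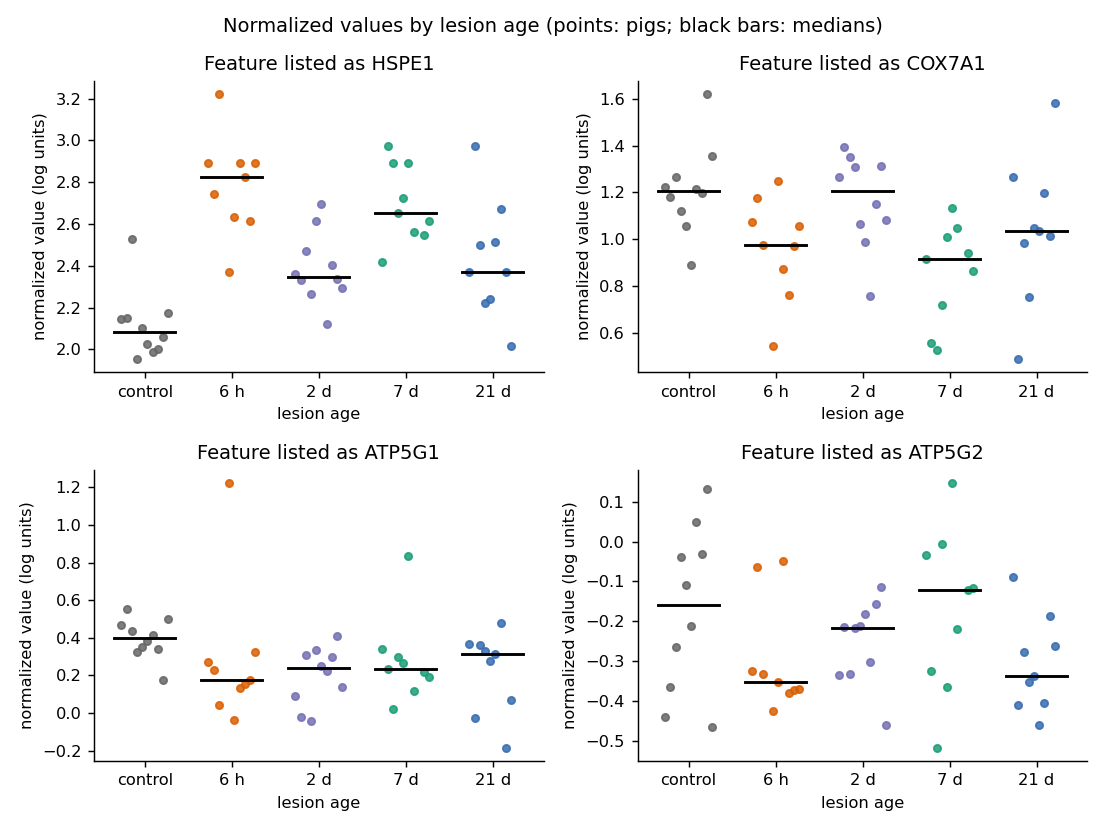
Normalized values (log units, y axis) of the 4 member features in control muscle and in lesions of 6 h, 2 d, 7 d and 21 d (x axis), with 1 point per pig and black bars at the medians. For HSPE1, 8 of 9 lesions at 6 h and at 7 d lie above all controls on this scale, while on the table values the groups overlap; the COX7A1, ATP5G1 and ATP5G2 groups overlap at every age.

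Against control, HSPE1 was higher by 0.66 (SE 0.0886, adjusted p = 1.071e-06) at 6 h, in 9 of 9 pigs. At 7 d it was higher by 0.58 (SE 0.0886, adjusted p = 4.256e-06), again in 9 of 9 pigs. Beside these, 6.92% of all features were called higher at 6 h and 10.7% at 7 d. The rise at 21 d was smaller, at 0.32 (SE 0.0886, adjusted p = 0.0125, 7 of 9 pigs), where 6.5% of features were called higher. That call was lost without pig D or without pig I, the 2 pigs with the highest HSPE1 values at 21 d (lowest difference 0.26, highest adjusted p = 0.0587). It was also lost with the array SD as a term (0.33, adjusted p = 0.0686), with division by the array SD (adjusted p = 0.110) and with only the 2 groups in the fit (adjusted p = 0.0609). At 2 d the difference was 0.28 (SE 0.0857, adjusted p = 0.159) in 9 of 10 pigs, and 0.734% of features were called at that age. A test over all 4 ages at once called HSPE1 (F = 17.6, adjusted p = 1.065e-06), as it did 22.6% of features.

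The ages differed among themselves. Between 2 d and 6 h lesions the HSPE1 difference was -0.38 (SE 0.0886, adjusted p = 0.00421), lower at 2 d in 7 of 9 pigs, beside 4.66% of features called lower in that comparison. It was higher at 7 d than at 2 d by 0.30 (adjusted p = 0.0138), in 9 of 9 pigs, beside 9.43% of features called higher. From the largest to the smallest mean, the order was 6 h (2.79 ± 0.24), 7 d (2.70 ± 0.19), 21 d (2.43 ± 0.28), 2 d (2.39 ± 0.17) and control (2.11 ± 0.16; SD, n as above). The difference of 21 d from 7 d was -0.26 (adjusted p = 0.285, beside 0.681% of features called), that of 2 d from control did not pass either, and the pairs 6 h with 7 d and 21 d with 2 d lay within their SDs and were not tested.

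Without normalization the picture changed. The HSPE1 table value ran from 1.57 to 3.35 with a median of 2.94 in controls, from 1.98 to 3.31 (median 2.86) at 6 h, from 1.97 to 3.24 (median 2.43) at 2 d, from 1.78 to 2.77 (median 2.22) at 7 d and from 1.45 to 3.22 (median 1.72) at 21 d. All lesion groups overlapped the controls. The fitted difference from control was -0.029 for 6 h lesions (adjusted p = 0.941), -0.12 for 2 d lesions (adjusted p = 0.766), -0.41 for 7 d lesions (adjusted p = 0.185) and -0.66 for 21 d lesions (adjusted p = 0.0390). At 21 d HSPE1 was thus called lower on the table values and higher on the normalized ones. Over the 191 features with the highest means, HSPE1 among them, the median difference on the table values was -0.74, -0.47, -1.08 and -1.04 at the 4 ages, so HSPE1 fell less than the median of these features at each. With the array SD as a term in the fit of the table values, a setting chosen after seeing the data, HSPE1 was higher by 0.67 (adjusted p = 4.9e-04) at 6 h, by 0.63 (adjusted p = 0.00392) at 7 d and by 0.36 (adjusted p = 0.207) at 21 d. With that term in the fit of the normalized values it was higher by 0.67 (adjusted p = 1.075e-05) at 6 h and by 0.60 (adjusted p = 2.416e-04) at 7 d, beside 7.18% and 9.38% of features called higher, while at 21 d it was at 0.33 and not called (adjusted p = 0.0686).

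The rank of HSPE1 within its own array is the quantity that quantile normalization keeps, since it gives each rank a fixed value, so the ranks restate the normalized result and are no separate support for it. Counted from the highest of 1908 features, it ran from 33 to 89 with a median of 73.5 in controls. At 6 h it ran from 10 to 45 with a median of 19. The medians were 47 at 2 d, 26 at 7 d and 45 at 21 d, with ranges of 24 to 69, 15 to 41 and 15 to 81. HSPE1 therefore stood closer to the top of the array in lesions of 6 h and 7 d than in controls, except for the control of pig E, at rank 33, which lay inside both ranges. A rank says where a spot stands among the spots of its array and not how abundant its transcript is beside that of other genes.

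**Figure D2:**
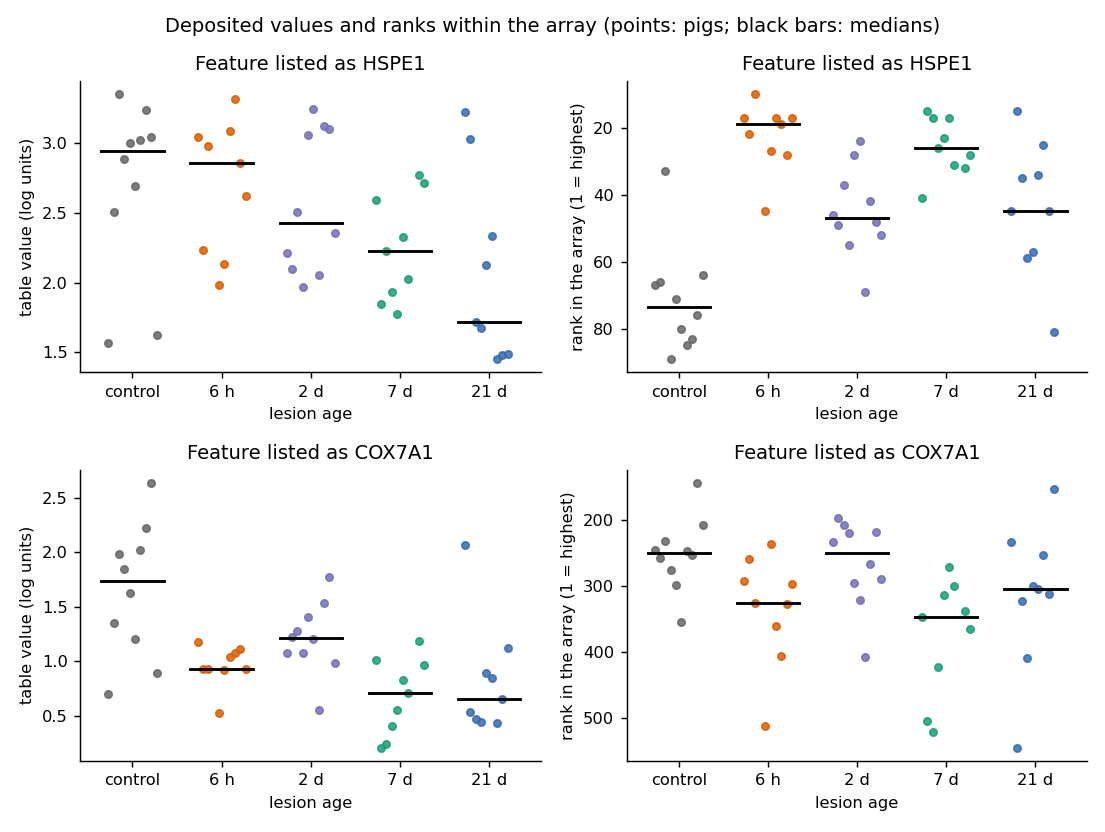
Deposited table values (log units, left) and rank from the highest of 1908 features (right, 1 at the top of the axis) of the features listed as HSPE1 and COX7A1, with 1 point per pig, in control muscle and the 4 lesion ages. The median HSPE1 rank is 73.5 in controls and 19 at 6 h, while its median table value is 2.94 in controls and 2.86 at 6 h; the COX7A1 median is lower at 7 d than in controls on both measures.

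With the 6 h array of pig F put back in place, HSPE1 was at 0.43 (adjusted p = 0.0721) at 6 h and 0.32 (adjusted p = 0.236) at 21 d, and kept its call at 7 d (0.59, adjusted p = 0.00933), where 9.33% of features were then called higher. With that array neither step between ages was called, at -0.16 (adjusted p = 0.641) for 2 d minus 6 h and 0.31 (adjusted p = 0.260) for 7 d minus 2 d, and the test over all ages did not pass (F = 3.45, adjusted p = 0.0773). The other array that stood apart at 6 h among these genes was that of pig G. It held the lowest HSPE1, COX7A1 and ATP5G2 values and the highest ATP5G1 value of the group. Without pig G the 6 h difference of HSPE1 was 0.71 (adjusted p = 5.322e-07).

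COX7A1 was lower than in control muscle at 7 d, and this direction was the same on the normalized and the table values. On the table values 96.3% of the 191 features with the highest means, COX7A1 not among them, were also lower at 7 d. The shared direction is therefore no separate support. The 7 d call was lost with the array SD as a term (adjusted p = 0.0573 on the normalized and 0.371 on the table values). It was also lost with a running median along the feature list subtracted (adjusted p = 0.0625). The normalized value ran from 0.892 to 1.62 with a median of 1.21 in controls and from 0.527 to 1.13 with a median of 0.915 at 7 d. The groups overlapped, with 4 of 9 lesions below every control. The difference was -0.36 (SE 0.104, adjusted p = 0.00799), lower in 8 of 9 pigs. At that age 14.6% of all features were called lower. At 6 h the values ran from 0.543 to 1.25 (median 0.974), with a difference of -0.26 (SE 0.104, adjusted p = 0.098) and lower values in 8 of 9 pigs. At 2 d they ran from 0.757 to 1.39 (median 1.21), with a difference of -0.05 (adjusted p = 0.860). At 21 d they ran from 0.490 to 1.58 (median 1.04), with a difference of -0.17 (adjusted p = 0.311). Only 4.87% of features at 6 h and 8.23% at 21 d were called lower.

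By group mean, COX7A1 was highest in controls (1.21 ± 0.19) and at 2 d (1.17 ± 0.20), followed by 21 d (1.04 ± 0.31), 6 h (0.965 ± 0.216) and 7 d (0.857 ± 0.214), all as mean ± SD. Of the steps between ages, 1 passed: COX7A1 was lower at 7 d than at 2 d by 0.32 (difference -0.32, adjusted p = 0.0293, lower in 7 of 9 pigs), beside 7.02% of features called lower. This call was lost when any 1 of pigs C, D, E, F or K was left out (highest adjusted p = 0.144). The difference of 2 d from 6 h was 0.21 (adjusted p = 0.265), and that of 21 d from 7 d was 0.20 (adjusted p = 0.640). The test over all ages called COX7A1 at an adjusted p of 0.0331, a call lost without any 1 of pigs C, E, F, J, K or L, and also without both samples that share the copied values, the 6 h lesion of pig J and pig I's control (adjusted p = 0.0805).

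On the table values the falls of COX7A1 were larger than on the normalized values, and more were called. The values had medians of 1.74 in controls, 0.928 for 6 h, 1.21 for 2 d, 0.707 for 7 d and 0.652 for 21 d. The differences were -0.71 (adjusted p = 0.00611) at 6 h, -0.44 (adjusted p = 0.0934) at 2 d, -0.95 (adjusted p = 1.388e-04) at 7 d and -0.84 (adjusted p = 5.479e-04) at 21 d. On this scale 20.6%, 0.524%, 25.9% and 27.8% of all features were called lower at the 4 ages. The 191 features with the highest means, COX7A1 not among them, had median differences of -0.74, -0.47, -1.08 and -1.04. COX7A1 thus fell no further than the median of these features at any age. With the array SD in the fit of the normalized values, the 7 d difference was -0.37 (adjusted p = 0.0573), and with the array SD in the fit of the table values it was -0.20 (adjusted p = 0.371). With median-centred values divided by the array SD, COX7A1 was called lower at 7 d (-0.47, adjusted p = 7.887e-04) and at 21 d (-0.32, adjusted p = 0.0321), and not at 6 h (-0.30, adjusted p = 0.0628). Its median rank was 250 in controls, 326 for 6 h, 250 for 2 d, 347 for 7 d and 304 for 21 d.

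**Figure D3:**
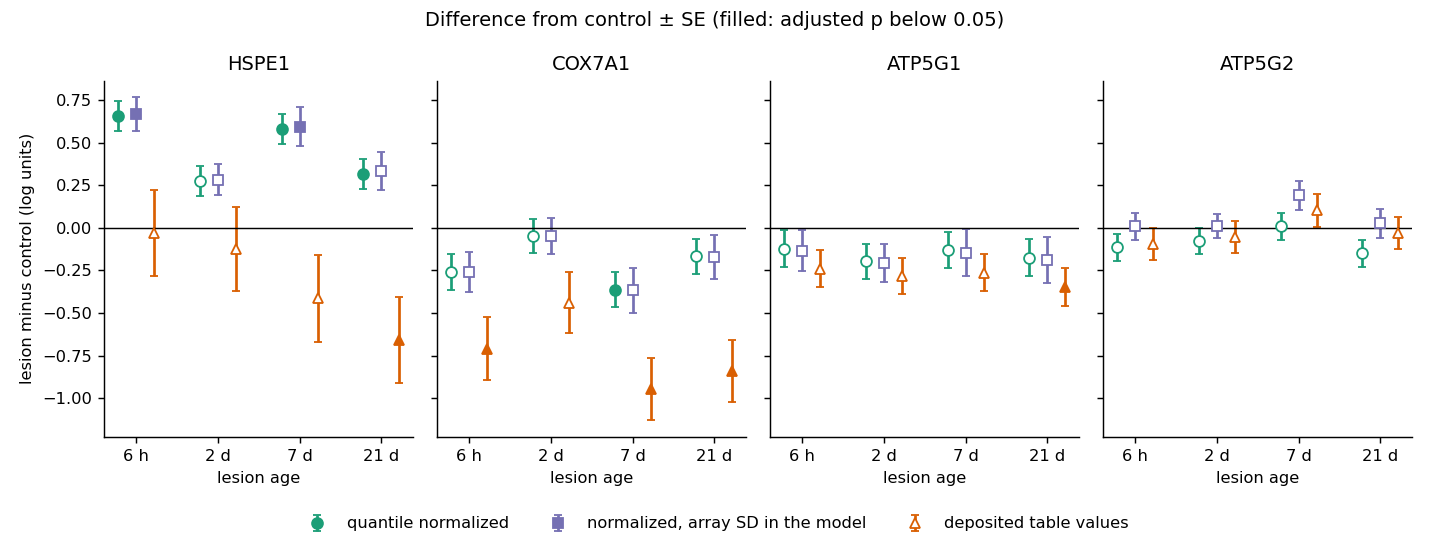
Lesion minus control differences (log units, y axis; bars are ± SE) of the 4 members at 6 h, 2 d, 7 d and 21 d, from quantile-normalized values, from the same values with the array SD in the model, and from the deposited table values; filled symbols have an adjusted p below 0.05. HSPE1 lies above 0 in both normalized fits (0.66 at 6 h) and at or below 0 on the table values (-0.66 at 21 d), while COX7A1 lies below 0 in all 3.

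The ATP synthase subunit c genes gave no call in the main fit of the normalized values, the one with terms for group and pig alone. ATP5G1 ran from 0.175 to 0.555 with a median of 0.399 in controls, from -0.039 to 1.22 (median 0.174) at 6 h, from -0.043 to 0.410 (median 0.237) at 2 d, from 0.0192 to 0.833 (median 0.235) at 7 d and from -0.184 to 0.479 (median 0.316) at 21 d. The median was below that of the controls at each age, and the groups overlapped at each. The differences were -0.12, -0.20, -0.13 and -0.17 at 6 h, 2 d, 7 d and 21 d, with adjusted p-values of 0.526, 0.581, 0.430 and 0.309. The lesion was lower than the control of the same pig in 8 of 9 pigs at 6 h and in 9 of 10 at 2 d. At 7 d and 21 d it was lower in 7 of 9. The 6 h value of pig G, 1.22, stood far above the next, 0.326, and without pig G the 6 h difference was -0.24 (adjusted p = 0.095). On the table values ATP5G1 was called lower at 21 d (-0.35, adjusted p = 0.0124).

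ATP5G2 ran from -0.464 to 0.130 with a median of -0.160 in controls. Its medians were -0.351 for 6 h, -0.216 for 2 d, -0.121 for 7 d and -0.337 for 21 d. The differences from control were -0.11 (95% confidence interval -0.27 to 0.04), -0.08 (-0.23 to 0.07), 0.01 (-0.15 to 0.17) and -0.15 (-0.31 to 0.01) at 6 h, 2 d, 7 d and 21 d. The fall at 21 d was seen in 8 of 9 pigs and did not pass (adjusted p = 0.208). All ATP5G2 groups overlapped the controls, and it lies among the 25% of features with the lowest means. With the array SD in the model its 21 d difference was 0.03 (adjusted p = 0.902). With array weights ATP5G2 was called lower at 6 h (-0.19, adjusted p = 0.0191) and at 21 d (-0.20, adjusted p = 0.0397). The share of all features called with these weights is not given here.

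Because 1 member can pass a threshold where another misses it, the changes of the members were also compared with each other within pigs. There were 24 comparisons, of 6 gene pairs at 4 ages, each by an exact two-sided sign-flip permutation test adjusted over the 24. On the normalized values 14 passed. HSPE1 changed more in the upward direction than each of the other 3 genes at all 4 ages. Its change exceeded that of COX7A1 by 0.91 ± 0.33 (SD, n = 9) at 6 h and by 0.93 ± 0.30 (n = 9) at 7 d, in 9 of 9 pigs each (exact permutation p = 0.00391, the smallest 9 pigs can give; adjusted p = 0.0134). It exceeded that of COX7A1 by 0.32 ± 0.27 (n = 10) at 2 d in 8 of 10 pigs, the smallest of these 12 differences (exact permutation adjusted p = 0.0288). COX7A1 changed more in the downward direction than ATP5G1 (difference -0.24) and ATP5G2 (difference -0.37) at 7 d, each in 7 of 9 pigs (exact permutation adjusted p = 0.0288 and 0.0402). The changes of ATP5G1 and ATP5G2 passed no test of their difference at any age. On the table values 0 of the 24 comparisons passed, and the smallest adjusted p was 0.0938 (exact permutation test). Without the 6 h lesion of pig J and pig I's control, 9 passed on the normalized values.

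Other genes of the same pathways were sparsely measured. Of the nuclear genes of oxidative phosphorylation, 5 genes had 7 features, namely the 3 members, NDUFA4 with 3 features and NDUFB6 with 1. NDUF names were given to subunits of complex I. In the main fit of the normalized values the only call among the 7 against control was the fall of COX7A1 at 7 d, 1 of 7 where 14.6% of all features were called lower, and none was higher. On the table values 2, 0, 2 and 3 of the 7 were lower at 6 h, 2 d, 7 d and 21 d, and 1 was higher at 7 d. Of all features, 20.6%, 0.524%, 25.9% and 27.8% were called lower on that scale, and the share called higher is not given here. Besides COX7A1 and ATP5G1 the features called among the 7 were one of NDUFA4 (6087), at -0.64 (adjusted p = 0.0340), -1.08 (adjusted p = 2.73e-04) and -1.01 (adjusted p = 6.484e-04) at 6 h, 7 d and 21 d, and another (7930) that was higher at 7 d by 0.33 (adjusted p = 0.0460). On the normalized values the median difference of the 7 was -0.11 for 6 h, 0.03 for 2 d, -0.05 for 7 d and -0.05 for 21 d, where the medians of all 1908 features were -0.02, -0.02, -0.01 and -9.175e-04. The 3 NDUFA4 features did not share a direction at 7 d, with normalized differences of -0.15, -0.05 and 0.29 (adjusted p = 0.205, 0.756 and 0.139). No mitochondrially encoded gene was among the measured symbols, nor was HSPD1, the Hsp60 partner of HSPE1, so HSPE1 was the only measured gene of the list of mitochondrial chaperones, proteases and import factors.

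Of the citric acid cycle, 3 genes had 1 feature each. IDH2, which makes NADPH in the matrix, had a 7 d value above control by 0.27 (SE 0.0846, adjusted p = 0.0159) on the normalized values, while on the table values it was at -0.74 (adjusted p = 0.0147), the same turn of sign that HSPE1 showed. Its normalized call was lost with the array SD as a term (adjusted p = 0.0659). DLST and IDH3B were not called at any age on the normalized values. On the table values 2 of the 3 features were lower at 21 d, beside 27.8% of all features, and DLST was 1 of them (-0.57, adjusted p = 0.0248). None of the 4 features of the fatty acid oxidation genes ACADS, FABP3 and HADHA was called at any age on either scale. Among carriers, 1 of 2 features of UCP3, an inner membrane transporter of skeletal muscle, was lower at 21 d by 0.23 (difference -0.23, adjusted p = 0.0425), and the other was at 0.10 (adjusted p = 0.670). The call was lost with the array SD as a term (adjusted p = 0.10), and on the table values the same feature was lower at 6 h (-0.37), 7 d (-0.41) and 21 d (-0.56; adjusted p = 0.0215, 0.00763 and 5.617e-04). VDAC1, the pore of the outer membrane, was not called on either scale. The 3 features of HSP90AA1, the inducible cytosolic Hsp90 and the only measured cytosolic heat shock gene, gave no call on the normalized values and differed in sign at 7 d (-0.24, -0.09 and 0.28). Without normalization 1 of the 3 (5185) was lower at 6 h (-0.83, adjusted p = 0.0112), 7 d (-1.13, adjusted p = 3.439e-04) and 21 d (-1.02, adjusted p = 0.00112).

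**Figure D4:**
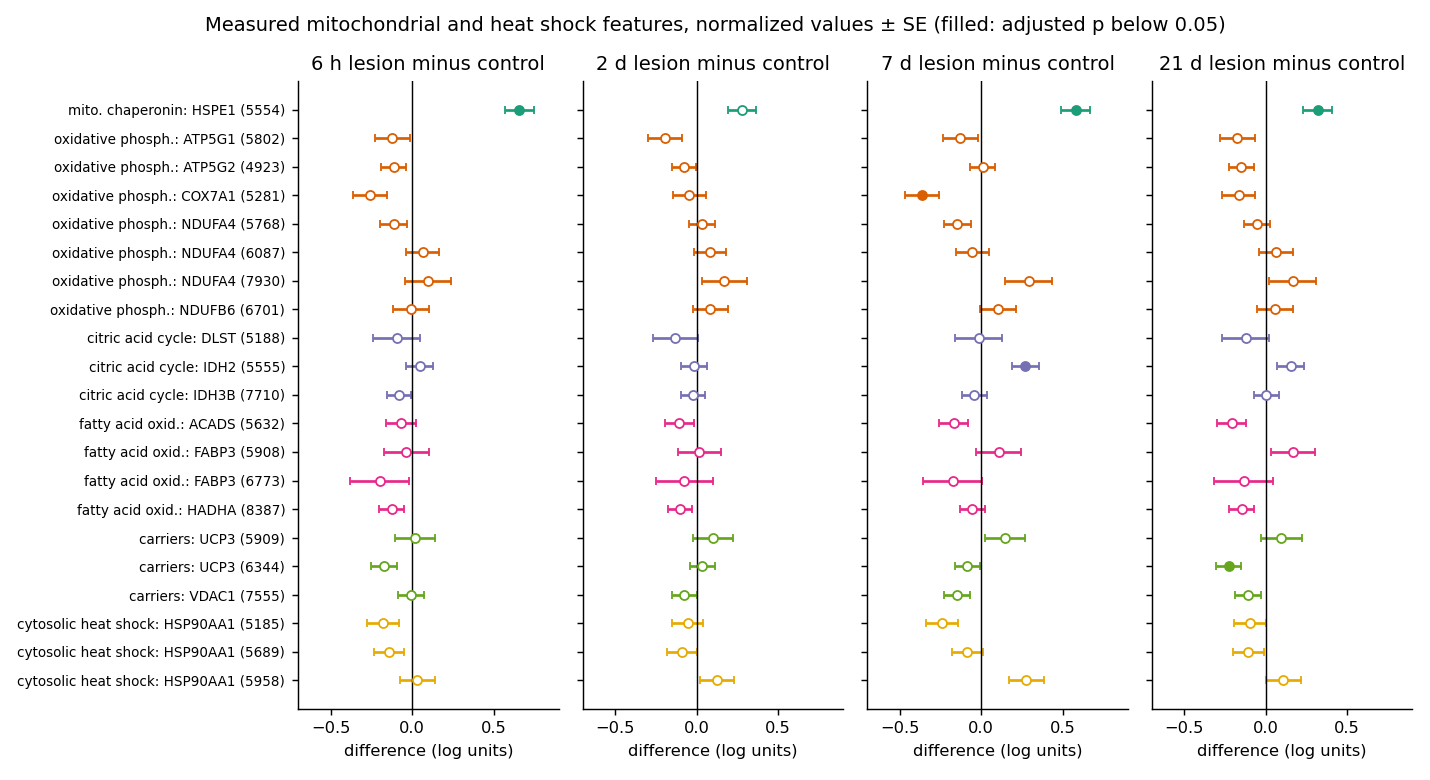
Lesion minus control differences of normalized values (log units, x axis; bars are ± SE) for each measured feature of the mitochondrial and cytosolic heat shock lists, in 4 panels by lesion age; feature numbers stand in brackets and filled symbols have an adjusted p below 0.05. The filled symbols are HSPE1 at 6 h, 7 d and 21 d, COX7A1 and IDH2 at 7 d and a UCP3 feature at 21 d; HSPE1 and IDH2 lie below 0 at these ages on the table values.

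Markers of the tissue itself moved in both directions at the ages where HSPE1 and COX7A1 were called, with more lower than higher at 7 d and 21 d. The skeletal muscle list had 37 features of 6 genes. On the normalized values 3 of the 37 (8.11%) were higher and 2 (5.41%) lower at 6 h, where 6.92% and 4.87% of all features were. At 7 d, 3 (8.11%) were higher and 11 (29.7%) lower, beside 10.7% and 14.6% of all features, with a median difference of -0.13 for the list. At 21 d, 2 (5.41%) were higher and 5 (13.5%) lower, beside 6.5% and 8.23%. Of the 37, 11, 14 and 12 were lower on the table values at 6 h, 7 d and 21 d, beside 20.6%, 25.9% and 27.8% of all features, and 1, 2 and 1 were higher. The share of all features called higher on the table values is not given here, so the counts of higher features on that scale have nothing beside them. The part of these markers in the results on the members was not tested. The fast fibre list (39 features of 7 genes, many shared with the muscle list) had 2 higher and 11 lower at 7 d on the normalized values, and the slow fibre list (9 features of 5 genes) had 1 higher and 1 lower. On the table values at 7 d the fast list had 3 higher and 14 lower, and the slow list 0 higher and 4 lower. With the array SD in the fit of the normalized values, 4 of the 39 and 2 of the 9 were called at 7 d in either direction. For the muscle list it was 6 of the 37. In that fit 9.38% of all features were called higher at 7 d. The share called in either direction is not given here, so these counts do not show whether the lists differ from all features. Of other cell types, the endothelial marker PECAM1 and the matrix gene FN1 were measured by 1 feature each and not called at any age on either scale. No marker of neutrophils, macrophages, lymphocytes, adipocytes, red cells or regenerating muscle was among the measured symbols, so the part of incoming cells in these results was not tested.

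Across the 47 samples, after each pig's mean was subtracted, the members did not move as 1 group. Pearson's r of their normalized values was -0.48 between HSPE1 and COX7A1 and lay between -0.19 and 0.26 for the other 5 pairs. These correlations describe arrays that share lesion age, pig and array width. Among 205 other features with 1 symbol, the nearest to HSPE1 were 2 features of the fast myosin light chain MYLPF (r = 0.80 and 0.68) and JAK1 (r = 0.64), a kinase of cytokine receptors. The farthest from HSPE1 was QDPR (r = -0.66). The 18 features of MYLPF ranged from -0.49 to 0.80 in their correlation with HSPE1, with a median of -0.18, so the likeness held for single spots and not for the symbol.

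COX7A1 was nearest to OXTR (r = 0.76), GPX4 (r = 0.69) and 1 feature of HSP90AA1 (r = 0.67), and farthest from UGP2 (r = -0.74). ATP5G1 was nearest to ATP2A2 (r = 0.78), a CKM feature (r = 0.75) that lies 4 places away on the feature list, and NFKBIA (r = 0.75), and farthest from TPM2 (r = -0.67). ATP5G2 was nearest to FN1 (r = 0.68), a MYLPF feature (r = 0.60) and ANKRD1 (r = 0.57), and farthest from MYOZ1 (r = -0.54). Here too the likeness held for single spots. The 3 features of HSP90AA1 ranged from -0.041 to 0.67 with COX7A1 (median 0.18). The 10 features of CKM ranged from -0.095 to 0.75 with ATP5G1 (median 0.32). The 18 features of MYLPF ranged from -0.36 to 0.60 with ATP5G2 (median 0.037). No member was among the 3 nearest of another member.

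Spots next to each other on the feature list were compared as well. Over 1175 pairs of adjacent measured features the median r was 0.309, with 5% of pairs below -0.248 and 5% above 0.765. No r was taken for pairs farther apart, so this median has nothing to be set against. HSPE1 had r = 0.80 with the feature without a symbol 2 places before it, whose own differences from control were 0.49 (adjusted p = 3.531e-04) at 6 h, 0.31 (adjusted p = 0.150) at 2 d, 0.55 (adjusted p = 2.653e-05) at 7 d and 0.29 (adjusted p = 0.0377) at 21 d. It was thus called higher at the same 3 ages as HSPE1. IDH2, 1 place after HSPE1, had r = 0.44 with it. COX7A1 had r = 0.77 with the unnamed feature 1 place after it, which was at -0.43 (adjusted p = 0.00210) at 7 d. The nearest measured feature before COX7A1 had r = 0.35 with it. The features beside ATP5G1 had r = 0.07 and 0.20 with it, and those beside ATP5G2 had 0.36 and 0.07. With a running median along the list subtracted from each array, HSPE1 kept its calls at 6 h, 7 d and 21 d, and COX7A1 at 7 d lost its call (-0.25, adjusted p = 0.0625). Whether position on the array had a part in these likenesses was not tested beyond that setting.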

How the data were processed

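The deposited table holds log values of 4608 features in 90 columns, and per the labels each array carries its features in duplicate. Per the series' text, cDNA labelled with 33P was read from imaging plates at 25 micrometres. How the authors made the values, and the base of the log, are not given in the sources used here, so the deposited values, which lie between -1.33 and 5.00, were taken as log values of unknown base. Of 42 pairs of columns, 41 were identical and were averaged. Array medians ranged over 0.112, above the limit of 0.1 set for quantile normalization. Normalized values of 47 samples were fitted by limma 3.58.1 (lmFit, eBayes; R 4.3.3) with terms for group and pig, because the study placed the control site and the lesions in the same animals (3 of the 10 pigs lack 1 group in the fit), with two-sided tests and Benjamini-Hochberg adjustment over 1908 features. Differences between members were tested with scipy 1.17.1, by exact sign flips over pigs. Figures were drawn with matplotlib 3.10.9.

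On simulated data with 200 of 1908 features changed, the fit recovered 47%, 46.5%, 43% and 36% of changes of 0.3 at 6 h, 2 d, 7 d and 21 d, and 92%, 96.5%, 94% and 91% of changes of 0.6. False calls numbered from 6 to 11 per run. The simulated noise was normal and independent, with the residual SD of each feature. It held no differences in array width, no pig effects and no correlation between features, so these rates need not hold for the real arrays. As arrays give no counts, the precision depends on how many of them there are and on the spread of each feature. In the main fit at 6 h the SE was 0.0776 for ATP5G2, 0.0886 for HSPE1 and 0.107 for ATP5G1.

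The members, the gene lists and the tests were chosen with earlier results of these data known. Named besides the members were the measured genes of the mitochondrial and heat shock lists and, per member, the 3 features of another gene with 1 symbol that correlated most with it and the 1 that correlated least. Other genes are counted by list. Symbols come from the platform annotation, and all 4 gene IDs are in the current gene table. Alternatives covered the scaling, the array SD, the block, low values, position on the list, array weights, the copied column, the array of pig F and each pig in turn.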

Additional observations from a re-analysis of the deposited data

Results flagged for a closer look

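In 3 of the 20 combinations of member and group, 1 pig lay far from the rest of its group by Dixon's criterion at the 95% level, which chance passes in about 1 in 20 groups. The HSPE1 value of the control of pig E was 2.53, with the next highest control at 2.17 and a group median of 2.08. The ATP5G1 value of pig G at 6 h was 1.22, with the next at 0.326 and a median of 0.174. The ATP5G1 value of pig H at 7 d was 0.833, with the next at 0.343 and a median of 0.235.

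For 3 results, lesion ages differed from each other in the fit itself, each age being set against the same controls. HSPE1 had a difference of -0.38 log units between 2 d and 6 h lesions, lower at 2 d. It was higher at 7 d than at 2 d by 0.30. COX7A1 was lower at 7 d than at 2 d by 0.32 (difference -0.32). None of these 3 was called on the table values, where the HSPE1 difference of 7 d from 2 d was -0.29 (adjusted p = 0.510).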

How the results depend on the processing

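The scaling of the arrays decided the direction of HSPE1. On the table values it was at -0.029, -0.41 and -0.66 at 6 h, 7 d and 21 d, and -0.021, -0.40 and -0.63 on median-centred values; with the array of pig F added to the table values it was at -0.25, -0.41 and -0.65. HSPE1 at 7 d minus 2 d was then -0.29 in all 3, and at 2 d minus 6 h 0.12 in the last. The HSPE1 change minus that of ATP5G1 turned to -0.15 at 7 d and -0.38 at 21 d, and minus that of ATP5G2 to -0.069, -0.50 and -0.70 at 2 d, 7 d and 21 d, with table or median-centred values. Of the 24 differences between members, 0 then passed, against 14 normalized, and 9 without the pair of samples that share copied values (pig J at 6 h, pig I as control). Members called numbered 1 (6 h), 0 (2 d), 2 (7 d) and 1 (21 d). With the array of pig F these were 0 at 6 h and 0 at 21 d. Array weights gave 3 at 6 h (COX7A1 and ATP5G2 added, lower), 1 at 2 d (HSPE1, higher) and 2 at 21 d (ATP5G2 added, lower). These weights also narrowed the SE, for HSPE1 at 6 h from 0.0886 to 0.0673. The share of all features called is not given beside the counts of alternatives in this section. They therefore do not show whether members gained or lost calls more than other features did. At 7 d the count was 1 on table or median-centred values, with the array SD as a term, with the local trend subtracted and in both added settings (table values with the array SD as a term, or with the array of pig F, chosen after seeing the data). At 21 d it was 3 on table or median-centred values, all lower, and 0 with the array SD as a term on either scale or with only the 2 groups fitted. With division by the array SD the 21 d count stayed at 1, but the member called was COX7A1, lower, in place of HSPE1. For 2 d minus 6 h the count of 1 became 0 with the array of pig F, on table, median-centred or SD-scaled values, with 2 groups only and in both added settings. For 7 d minus 2 d the count of 2 became 1 with the array of pig F, the local trend subtracted or 2 groups only, and 0 on table or median-centred values and in both added settings. In the test over all ages 2 became 1 with the array of pig F, on table or median-centred values, with the array SD as a term, with the local trend subtracted, without the pair that shares copied values, and in both added settings. With each pig left out in turn the counts ran from 1 to 2 at 6 h, 0 to 1 at 21 d, 1 to 2 for 7 d minus 2 d and for the test over all ages, and 9 to 12 for differences between members. HSPE1 lay between 0.63 and 0.71 at 6 h and between 0.54 and 0.62 at 7 d, called each time, and COX7A1 at 7 d between -0.43 and -0.32. The pairing rests on the design, in which control and lesions lie in the same pigs, though 3 of 10 pigs lack 1 group in the fit. Without the pig block HSPE1 was at 0.67 at 6 h (adjusted p = 1.361e-06) and COX7A1 at -0.36 at 7 d (adjusted p = 0.00817), and neither dropping the block nor a random replicate block changed a call of a member. ATP5G2 was not tested with the lowest 25% of features left out, since it lies in it.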
